A study of Homo sapiens with 20 samples.

Results

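The 10 genes described here belong to the basal epithelial programme: the type II keratins KRT5, KRT6A and KRT6B, the type I keratins KRT14, KRT15, KRT16 and KRT17, the transcription factors TP63 and TP73, and SFN. They were taken by symbol from the table of read counts per Entrez gene, and all 10 were found among its 27864 genes. The mRNA came from SUM159PT, a human triple-negative breast cancer cell line, in 20 libraries and 7 groups. Wild-type cells (wt) and the pools named KOs and KOd were each grown adherent (2D) or as secondary tumorspheres (3D), with n = 3 libraries per group. Both pools were made to lack NNMT, an enzyme that methylates nicotinamide: KOs with 1 sgRNA at the transcription start site and KOd with 2 sgRNAs that remove exon 1. Each pool is a mixture of several clones of its design, so that a pool carries the traits of those clones as well as its edit. Adherent cells grew in Ham's F12 with 5% serum, insulin and hydrocortisone, and tumorspheres grew unattached for 2 rounds of 6 days in serum-free medium with B27, 20 ng/mL EGF and 20 ng/mL basic FGF. In a further group, with n = 2, adherent wt cells were moved to the tumorsphere medium at 50% confluency and collected at 80%. RNA was extracted with different kits from 2D and 3D cells, which cannot be told apart from the culture itself.

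Keratins form filaments only as pairs of a type I and a type II chain, and in basal cells of stratified epithelia and of the mammary gland the usual pair is KRT14 with KRT5. KRT15 is a further basal type I keratin, and KRT6A, KRT6B, KRT16 and KRT17 are the keratins of wounded, activated and appendage epithelium. TP63 encodes p63, the p53 relative on which basal cell identity depends and which binds the KRT5 and KRT14 control regions, and TP73 encodes its relative p73. SFN encodes 14-3-3 sigma, an epithelial adaptor protein of the G2/M checkpoint that p53 induces and that binds keratins in the cytoplasm. TP63 and TP73 each have long and N-terminally truncated products from separate start sites, which counts per gene do not separate.

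Read totals were 26396964 to 43744817 per library, with 37316513 to 43744817 in the libraries labelled KOs and at most 32016875 in the others, so that depth cannot be told apart from the KOs pool. NNMT, the targeted gene, had 117 ± 13.3 CPM in adherent wt cells and 98.4 ± 27.5 in wt tumorspheres (CPM are read counts per library size after TMM scaling, given as mean ± SD over 3 libraries). It was at 4.55 ± 0.139 and 5.15 ± 0.497 in KOd, but at 106 ± 27.6 in 2D and 84.8 ± 1.75 in 3D in the libraries labelled KOs, so its mRNA does not check that label. Replicate A of labelled KOs 2D stood apart from the others of its group, as did replicate C in KOd 3D and in wt 3D. The mesenchymal-like markers VIM (2537 to 5967 CPM) and CD44 (410 to 1282) were high in all 20 libraries. The luminal markers ESR1 (at most 0.315 CPM) and EPCAM (at most 0.426) were nearly absent, PGR was at 0 in 17 libraries and CDH1 at 0 in 10, while ERBB2 (54.2 to 99.0) and GATA3 (1.30 to 14.4) were found in all. Of the leukocyte markers CD3E was at 0 in 17 libraries, and of 4 endothelial markers CDH5 was at 0 in 13. The summed leukocyte markers, nearly all CD68, were at 183 to 194 CPM in labelled KOs 3D and 17.8 to 20.2 in wt 3D. The summed endothelial markers were at 7.45 to 10.8 CPM in wt 2D, 50.6 to 73.3 in wt 3D, 90.2 to 97.4 in KOd 3D and 31.1 to 36.2 in labelled KOs 3D. That rise was of PECAM1, from 2.66 ± 0.708 CPM in wt 2D to 59.4 ± 12.1 in wt 3D, whereas KDR fell from 5.81 ± 2.67 to 0.0220 ± 0.0190 and VWF had no call. The part of these markers in the results was not tested.

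Sequence before the annotated start was matched for 4 of the 10 genes (KRT5, SFN, TP63 and TP73), from RefSeq on GRCh38.p14. The 250 bases before the start are shown for the basal keratin with the clearest difference between the pools, for SFN and for TP63, with motif matches in capitals, 5′ to 3′ on the gene's strand.
KRT5, chr12:52520395-52520644, minus strand: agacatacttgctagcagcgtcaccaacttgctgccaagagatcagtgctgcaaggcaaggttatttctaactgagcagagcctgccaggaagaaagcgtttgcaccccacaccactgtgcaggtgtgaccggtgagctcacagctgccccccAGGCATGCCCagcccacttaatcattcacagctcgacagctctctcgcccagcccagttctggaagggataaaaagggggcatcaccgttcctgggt
SFN, chr1:26862899-26863148, plus strand: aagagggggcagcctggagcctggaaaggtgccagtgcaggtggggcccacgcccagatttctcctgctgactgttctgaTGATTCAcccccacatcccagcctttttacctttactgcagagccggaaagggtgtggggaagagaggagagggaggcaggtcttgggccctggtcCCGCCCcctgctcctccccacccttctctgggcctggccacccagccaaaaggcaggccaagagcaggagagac
TP63, chr3:189631139-189631388, plus strand: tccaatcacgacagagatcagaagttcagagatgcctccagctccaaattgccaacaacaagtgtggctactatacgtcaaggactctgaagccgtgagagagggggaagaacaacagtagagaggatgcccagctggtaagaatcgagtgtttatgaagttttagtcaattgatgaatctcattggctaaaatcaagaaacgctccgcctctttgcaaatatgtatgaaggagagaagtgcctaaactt
The TATA box was searched as TATAAA on both strands. The AP-1 motif TGASTCA (S is C or G) was searched in a looser form, TGANTCA, with any middle base. The GC box of the Sp family was searched as GGGCGG, along with the p53-family decamer. In KRT5 the capitals mark a p53-family decamer that begins 97 bases before the start, a motif found in 5.57% of 35116 promoter windows of this length. SFN held a TGANTCA match 170 bases before the start, found in 6.57% of windows. Its middle base is T, so it is not the stricter TGASTCA. SFN also held a GGGCGG match, on the other strand, 74 bases before the start, found in 42.6%. The TP63 window, which lies inside the annotated gene before one of its starts, held none of the 4 motifs. A match describes the letters and does not show binding.

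TP63 (Entrez 8626, chromosome 3, 189596746 to 189897276) was far higher in tumorspheres than in adherent cells. In wt 2D it was at 6.70, 6.41 and 8.87 CPM in replicates A, B and C, and in wt 3D at 243, 251 and 289. The log2 fold change (with an SE worked back from the F statistic of the test) was 5.16 ± 0.27 (adjusted p = 4.9e-11), which is 35.7-fold. In labelled KOs 2D the values were 18.9, 11.7 and 6.53 CPM, and in labelled KOs 3D 61.4, 57.4 and 57.8. KOd started higher, at 42.7, 36.9 and 47.2 CPM in 2D, and reached 210, 198 and 246 in 3D. No 3D library overlapped a 2D library of the same cells. TP63 rose with tumorsphere culture by 2.25 ± 0.24 in labelled KOs (adjusted p = 3.6e-07) and by 2.37 ± 0.23 in KOd (adjusted p = 1.0e-07). Both rises were smaller than in wt by the test of the interaction, -2.91 ± 0.34 (adjusted p = 5.9e-06) and -2.79 ± 0.33 (adjusted p = 9.2e-06). As bulk values, these do not tell more cells with TP63 mRNA apart from more TP63 mRNA per cell, here and for all genes that follow.

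For TP63 the pools differed from wt at different ends. In KOd the 2D level was raised over wt 2D, by 2.53 ± 0.25 (adjusted p = 3.5e-07), while in 3D the difference from wt of -0.26 did not pass (95% interval -0.74 to 0.22, adjusted p = 0.39). With the replicate block in wt 3D and KOd 3D alone this difference was -0.26 ± 0.07 and was called (adjusted p = 0.032). In labelled KOs the 3D level was below wt 3D by a log2 fold change of -2.15 ± 0.23 (adjusted p = 4.2e-07), with no overlap. The 2D level of labelled KOs was called higher than in wt, 0.76 ± 0.25 (adjusted p = 0.015), but the ranges overlapped and 0.32 was left without labelled KOs 2D replicate A (adjusted p = 0.17). That call was also lost without wt 2D replicate A or B and with the compared groups fitted alone. In order of level, wt 3D and KOd 3D overlapped at the top, followed by labelled KOs 3D and KOd 2D, each clear of its neighbours. Labelled KOs 2D overlapped wt 2D, and the tumorsphere medium group was lowest at 6.36 and 5.74 CPM.

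TP73 (Entrez 7161, chromosome 1, 3652516 to 3736201) was at 4.65, 4.92 and 5.53 CPM in wt 2D and 10.5, 9.07 and 18.6 in wt 3D, a log2 fold change of 1.34 ± 0.32 (adjusted p = 0.0014). In KOd it went from 4.32, 4.08 and 2.45 CPM in 2D to 23.6, 21.6 and 52.8 in 3D, a rise of 3.17 ± 0.33 (adjusted p = 2.1e-07). This rise was larger than that of wt by 1.83 ± 0.45 on the log2 scale (adjusted p = 0.0051). The labelled KOs libraries were lowest in both cultures, with 1.60, 1.42 and 1.02 CPM in 2D and 2.43, 2.08 and 2.27 in 3D. Their rise of 0.74 ± 0.36 was not called (adjusted p = 0.080), but was with the compared groups alone (0.74, adjusted p = 0.030) and with library totals (0.95, adjusted p = 0.020). Against wt, TP73 in labelled KOs was lower by -1.89 ± 0.35 in 2D (adjusted p = 2.3e-04) and -2.49 ± 0.33 in 3D (adjusted p = 5.3e-06), and KOd 3D was higher than wt 3D by 1.36 ± 0.30 (adjusted p = 0.0020). Antisense genes overlap the TP73 locus and the strand setting of the counting is not given in the sources used here, so their reads cannot be told apart from those of TP73.

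Per kilobase of gene length, TP63 and TP73 were nearly equal in wt 2D, with a ratio of levels of 1.14 ± 0.118 (n = 3). The ratio was 17.4 ± 4.87 in wt 3D, 6.92 ± 2.16 in labelled KOs 2D and 20.6 ± 1.02 in labelled KOs 3D. In KOd it was 10.0 ± 4.47 in 2D and 5.96 ± 1.99 in 3D. TP63 held the larger per-length level in every group except adherent wt cells in tumorsphere medium, at 0.849 ± 0.0489 (n = 2).

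**Figure D1:**
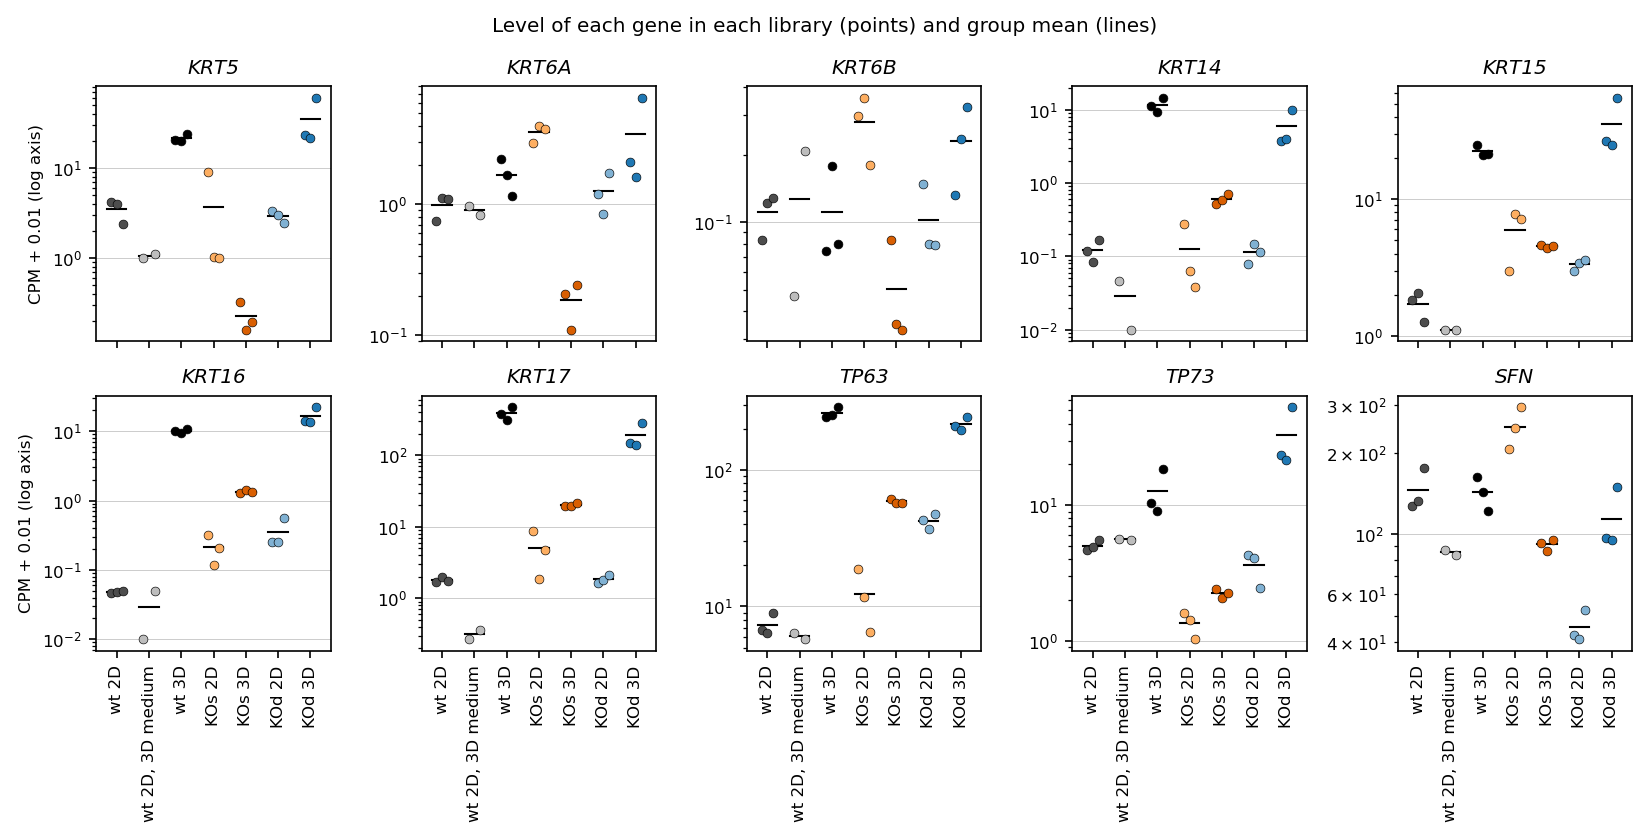
Level of each of the 10 genes in every library (CPM + 0.01 on a log axis) by group, with 1 point per library and a line at the group mean. TP63, KRT14, KRT16 and KRT17 sit higher in every 3D group than in the 2D group of the same cells, and KRT5 and KRT6A are lowest in labelled KOs 3D.

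KRT17 (Entrez 3872, chromosome 17, 41619442 to 41624575) had the highest level per kilobase of the 7 keratins in every tumorsphere group. It was at 1.68, 1.97 and 1.73 CPM in wt 2D and at 380, 312 and 473 in wt 3D, a 216-fold difference (log2 fold change 7.75 ± 0.45, adjusted p = 1.6e-10). In KOd it went from 1.61, 1.78 and 2.10 CPM to 149, 139 and 284 (6.70 ± 0.43, adjusted p = 5.1e-10). Labelled KOs went from 8.69, 1.83 and 4.71 CPM to 19.7, 19.4 and 21.3. That rise was 1.98 ± 0.35 (adjusted p = 9.4e-05), or 2.63 without labelled KOs 2D replicate A. Every 3D library was above every 2D library, and the 3 kinds of tumorsphere did not overlap each other. KRT17 in labelled KOs 3D was 19.3-fold below wt 3D (-4.27 ± 0.36, adjusted p = 2.0e-08). In KOd 3D it was below wt 3D by -1.03 ± 0.32 (adjusted p = 0.017), a call lost without wt 3D replicate C (-0.86, adjusted p = 0.058) and without KOd 3D replicate A or B. In 2D the higher level in labelled KOs (1.51 ± 0.43, adjusted p = 0.0066) overlapped wt and was 0.85 (adjusted p = 0.088) without labelled KOs 2D replicate A.

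KRT16 (Entrez 3868, chromosome 17, 41609778 to 41612767), which pairs with KRT6A in activated epithelium, was close to absent in adherent wt cells, with 1 read in each library. In wt 3D it was at 10.0, 9.27 and 10.9 CPM. The 898 reads in wt 3D against 3 in wt 2D give a ratio of 267, with a 95% counting interval of 90.9 to 1295, and the test called a rise (adjusted p = 8.1e-11). In KOd it went from 0.240, 0.244 and 0.552 CPM to 13.8, 13.5 and 22.2 (5.56 ± 0.31, adjusted p = 9.4e-11). Labelled KOs went from 0.310, 0.107 and 0.199 CPM to 1.27, 1.43 and 1.32 (2.66 ± 0.34, adjusted p = 3.1e-06). KRT16 was therefore higher in 3D than in 2D in all 3 kinds of cells. Labelled KOs 3D lay clear below the other tumorspheres, at -2.90 ± 0.26 against wt 3D (adjusted p = 3.8e-08). Against wt 2D both pools were called higher, on 24 reads in labelled KOs (ratio 5.57, interval 1.69 to 28.9) and 30 in KOd (ratio 9.18, interval 2.85 to 47.0) against 3. The first of these calls was lost without labelled KOs 2D replicate A (adjusted p = 0.056). KOd 3D was above wt 3D by 0.71 ± 0.23 (adjusted p = 0.022), which was 0.44 (adjusted p = 0.16) without KOd 3D replicate C and was also lost without wt 3D replicate A or B.

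KRT14 (Entrez 3861, chromosome 17, 41582279 to 41586895), the basal partner of KRT5, had 2 to 4 reads per library in wt 2D and was at 11.3, 9.20 and 14.6 CPM in wt 3D. The log2 fold change was 6.64 ± 0.54 (adjusted p = 1.2e-08), about 100-fold. KOd went from 2 to 4 reads per library to 3.70, 3.96 and 10.0 CPM (5.77 ± 0.55, adjusted p = 6.2e-08, or 5.15 without KOd 3D replicate C). The labelled KOs libraries went from 11, 2 and 1 reads to 0.515, 0.576 and 0.695 CPM, a rise of 2.26 ± 0.58 (adjusted p = 0.0025), or 3.73 without labelled KOs 2D replicate A. Labelled KOs 3D did not overlap wt 3D and was 19.5-fold lower (-4.29 ± 0.42, adjusted p = 1.2e-07). KOd 3D was called lower than wt 3D, -0.99 ± 0.35 (adjusted p = 0.036), but the ranges overlapped. That call was lost without wt 3D replicate A (-1.02, adjusted p = 0.067) or C (-0.80, adjusted p = 0.11), without KOd 3D replicate A (-0.75, adjusted p = 0.16) or B (-0.77, adjusted p = 0.16), and with library totals, and was -1.61 without KOd 3D replicate C.

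KRT15 (Entrez 3866, chromosome 17, 41513745 to 41518890), a keratin of basal and hair follicle stem cells, rose in wt and KOd and was not called in labelled KOs, where the other 3 type I members rose. It was at 1.83, 2.05 and 1.26 CPM in wt 2D and 24.7, 21.1 and 21.4 in wt 3D (3.70 ± 0.34, adjusted p = 5.6e-08). In KOd it was at 2.98, 3.38 and 3.59 CPM in 2D and 26.8, 25.0 and 55.3 in 3D (3.42 ± 0.32, adjusted p = 5.6e-08). In labelled KOs it was at 2.99, 7.73 and 7.18 CPM in 2D and 4.61, 4.41 and 4.56 in 3D, with overlap and no call (-0.39 ± 0.30, 95% interval -1.05 to 0.26, adjusted p = 0.26), but with a fall of -0.72 (adjusted p = 0.017) without labelled KOs 2D replicate A. Labelled KOs was thus above wt in 2D (1.79 ± 0.34, adjusted p = 2.6e-04) and below it in 3D (-2.30 ± 0.30, adjusted p = 4.9e-06). KOd 2D was above wt 2D by 0.95 ± 0.35 (adjusted p = 0.035), a call lost without wt 2D replicate A or C or KOd 2D replicate B or C, and KOd 3D and wt 3D differed by 0.67 without a call (adjusted p = 0.077).

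KRT5 (Entrez 3852, chromosome 12, 52514575 to 52520394), whose promoter is printed above, rose in wt and KOd and fell in labelled KOs. It was at 4.21, 3.95 and 2.39 CPM in wt 2D and 20.3, 20.2 and 23.9 in wt 3D, a rise of 2.60 ± 0.60 on the log2 scale (adjusted p = 0.0011). In KOd it went from 3.33, 3.04 and 2.42 CPM to 23.2, 21.4 and 60.5 (3.58 ± 0.62, adjusted p = 6.7e-05, or 2.93 without KOd 3D replicate C). Labelled KOs went from 9.12, 1.02 and 0.994 CPM to 0.319, 0.150 and 0.185. This was a fall of -4.09 ± 0.82 (adjusted p = 3.0e-04), and still a fall, of -2.19 (adjusted p = 0.0041), without replicate A of the 2D group. The interaction with wt was -6.69 ± 1.01 (adjusted p = 8.8e-05), or -4.79 without that library. Labelled KOs 3D held 27 KRT5 reads in 3 libraries, and its level was 96.7-fold below wt 3D (-6.60 ± 0.80, adjusted p = 1.9e-06). Against wt in 2D the log2 difference of KOd was -0.27 (95% interval -1.62 to 1.09), without a call. For labelled KOs it was 0.10 (95% interval -1.21 to 1.40), a value that rested on replicate A, since replicates B and C lay below all wt 2D libraries. Without replicate A KRT5 in labelled KOs 2D was called lower than in wt 2D, at -1.80 ± 0.45 (adjusted p = 0.0021).

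KRT6A (Entrez 3853, chromosome 12, 52487176 to 52493257) fell in labelled KOs on lower counts. In wt it was at 0.732, 1.12 and 1.10 CPM in 2D and 2.20, 1.68 and 1.15 in 3D, without a call (0.77 ± 0.45, 95% interval -0.21 to 1.75, adjusted p = 0.14). In labelled KOs it was highest of all adherent groups, at 2.96, 3.97 and 3.78 CPM, and lowest in tumorspheres, at 0.196, 0.1001 and 0.232. The fall was -4.30 ± 0.52 (adjusted p = 1.5e-06), or 19.7-fold, and the interaction with wt was -5.07 ± 0.69 (adjusted p = 3.2e-05). In KOd it was at 1.20, 0.837 and 1.73 CPM in 2D and 2.11, 1.60 and 6.55 in 3D, where the call (1.44 ± 0.43, adjusted p = 0.0066) was lost without KOd 3D replicate C (0.56, adjusted p = 0.14). KRT6B (Entrez 3854, chromosome 12, 52446651 to 52452146) was not tested, with 87 reads over all 20 libraries and at most 13 in 1. It had 12, 13 and 6 reads in labelled KOs 2D and 4, 7 and 9 in KOd 3D, and at most 5 in each library of the other groups.

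Several keratin loci share near-identical sequence, so reads could be split among them: KRT6C held 0 to 9 reads per library, the pseudogenes KRT17P1 and KRT17P2 up to 136 and 150, and KRT16P3 up to 60. The values of KRT6A, KRT6B, KRT14, KRT16 and KRT17 are uncertain for this reason. The counting tool is not given in the sources used here, so these counts do not bound the error.

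**Figure D2:**
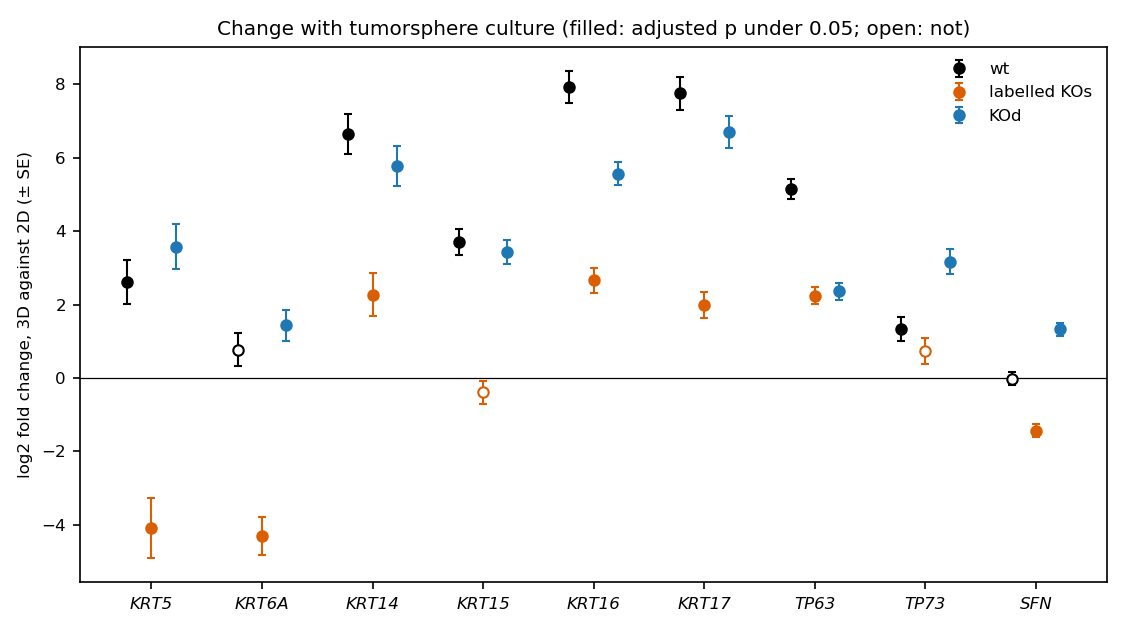
Log2 fold change (± SE) of the 9 tested genes in 3D against 2D for wt, labelled KOs and KOd, with filled points where adjusted p was under 0.05. KRT5 and KRT6A fall in labelled KOs, at -4.09 and -4.30, and KRT17 rises in all 3, by 7.75, 1.98 and 6.70.

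SFN (Entrez 2810, chromosome 1, 26863149 to 26864456) was expressed in every library, and its change with culture differed in direction between the pools. In wt it was at 128, 132 and 175 CPM in 2D and 163, 144 and 121 in 3D, with a log2 difference of -0.02 ± 0.17 (95% interval -0.40 to 0.35, adjusted p = 0.92). The labelled KOs libraries fell from 206, 247 and 294 CPM to 92.6, 86.7 and 95.5 (-1.44 ± 0.18, adjusted p = 1.7e-06). In KOd it rose from 42.5, 40.9 and 52.2 CPM to 96.6, 94.8 and 149 (1.33 ± 0.18, adjusted p = 3.8e-06). In 2D labelled KOs was above wt by 0.78 ± 0.17 (adjusted p = 0.0011) and KOd below it by -1.68 ± 0.18 (adjusted p = 7.6e-07), with no overlap among the 3 kinds of cells. In 3D labelled KOs was below wt by -0.64 ± 0.17 (adjusted p = 0.0045), while KOd overlapped wt (-0.33, adjusted p = 0.15, or -0.58 and called without KOd 3D replicate C, adjusted p = 0.012) and the labelled KOs and KOd tumorspheres differed by 0.31 without a call (adjusted p = 0.15). The interactions were -1.42 ± 0.25 for labelled KOs (adjusted p = 2.7e-04) and 1.35 ± 0.25 for KOd (adjusted p = 5.3e-04).

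The difference of these genes between tumorspheres and adherent cells was therefore not the same in each kind of cell. In wt 7 of the 9 tested members rose, the exceptions being KRT6A and SFN. Of all 16323 tested genes 63.7% were called, 33.3% higher and 30.4% lower. The members' median log2 fold change was 3.70, beside 0.04 over all tested genes. All 9 tested members rose in KOd, where 66.4% of all genes were called, 35.2% higher and 31.2% lower, with medians of 3.42 and 0.07. The KRT6A call in KOd was lost without KOd 3D replicate C (0.56). In labelled KOs 4 rose and 3 fell, beside 65.0% of all genes called, 32.9% higher and 32.1% lower, with medians of 0.74 and 0.02. The 3 that fell were KRT5, KRT6A and SFN. Since about 1 gene in 3 was called in each direction, a call alone says little here. Without labelled KOs 2D replicate A, KRT15 was also called lower (-0.72, adjusted p = 0.017), giving 4 and 4. The interaction compares the change in a pool with the change in wt. It was negative for 8 members in labelled KOs, of which KRT14, KRT16, KRT17 and TP63 rose by less than in wt, beside 36.8% of all genes called and 19.0% called lower. In KOd the rise of TP73 was larger than in wt, SFN rose where wt had no call, and KRT16 and TP63 rose by less than in wt, beside 29.1% of all genes called, 14.4% higher and 14.7% lower. The KOd interaction of KRT6A was not called.

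The direct comparison of tumorspheres showed the labelled KOs pool below wt in all 9 tested members, from -0.64 for SFN to -6.60 for KRT5, where 56.3% of all genes were called, 27.8% higher and 28.5% lower. The members' median was -2.90, beside 0.02 over all genes. KOd 3D differed from wt 3D in 4 of the 9, beside 34.0% of all genes called, 16.5% higher and 17.5% lower: KRT16 and TP73 were higher and KRT14 and KRT17 lower. KOd 3D exceeded labelled KOs 3D in 8 of the 9, all but SFN, beside 47.2% of all genes called, 23.9% higher and 23.3% lower. The log2 differences ran from 1.89 ± 0.23 for TP63 (adjusted p = 3.3e-06) to 7.30 ± 0.81 for KRT5 (adjusted p = 1.2e-06), or 6.65 for KRT5 without KOd 3D replicate C. Leaving out that library also lowered the difference from 4.23 to 3.36 for KRT6A and from 3.29 to 2.68 for KRT14.

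In adherent pools the directions were mixed. In labelled KOs 2D 6 of the 9 were higher than in wt 2D (KRT6A, KRT15, KRT16, KRT17, TP63 and SFN) and TP73 was lower, beside 53.2% of all genes called, 27.7% higher and 25.5% lower. Without labelled KOs 2D replicate A the calls of KRT16, KRT17 and TP63 were lost, leaving 3 higher, and KRT5 joined TP73 among the lower. In KOd 2D KRT15, KRT16 and TP63 were higher and SFN was lower, beside 44.6% of all genes called, 22.1% higher and 22.5% lower, a share close to that of the members. KRT6A was at a log2 fold change of 1.86 ± 0.44 in labelled KOs against wt (adjusted p = 0.0017) and 0.35 in KOd (adjusted p = 0.57). Between the adherent pools TP63 (1.77 ± 0.24, adjusted p = 4.7e-06) and TP73 (1.41 ± 0.36, adjusted p = 0.0023) were higher in KOd. SFN (-2.46 ± 0.18, adjusted p = 4.6e-09), KRT6A (-1.50 ± 0.42, adjusted p = 0.0052), KRT15 (-0.84 ± 0.31, adjusted p = 0.029) and KRT17 (-1.48 ± 0.42, adjusted p = 0.0056) were lower, beside 59.6% of all genes called, 28.8% higher and 30.7% lower. Without labelled KOs 2D replicate A the KRT17 difference was -0.82 and was not called (adjusted p = 0.085), and KRT5 was called higher in KOd (1.54, adjusted p = 0.0061) where all libraries gave -0.36 without a call. The KRT15 call was lost without labelled KOs 2D replicate B or C, without KOd 2D replicate A or B, with library totals and with the compared groups alone.

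**Figure D3:**
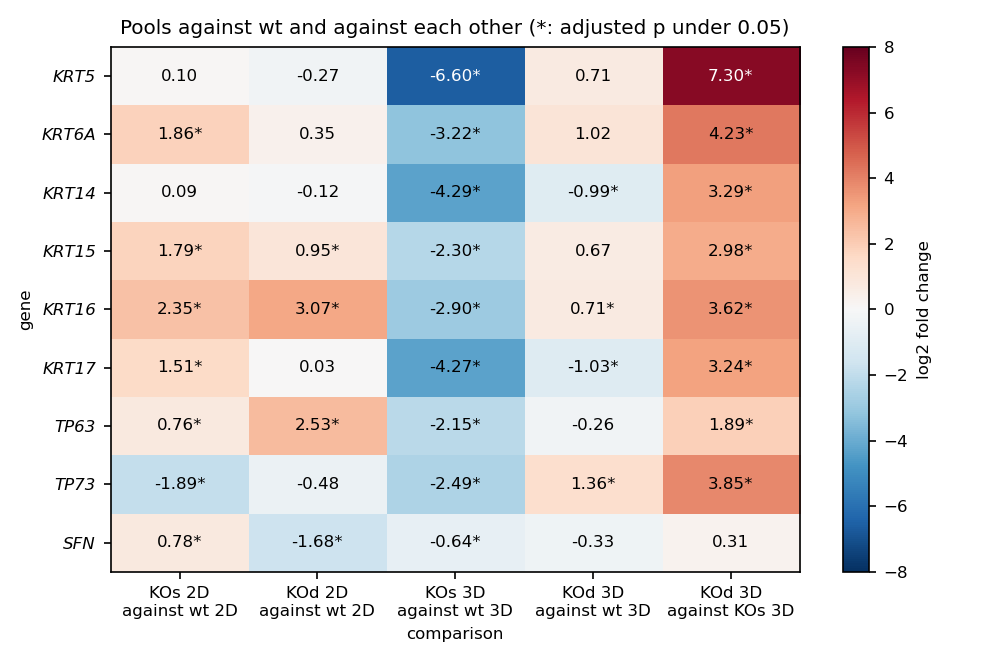
Log2 fold changes of the 9 tested genes between pools and wt and between the pools, one comparison per column, with the value in each cell and a star where adjusted p was under 0.05. All 9 values for labelled KOs 3D against wt 3D are negative, from -0.64 for SFN to -6.60 for KRT5.

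The change of medium was examined in wt cells that stayed adherent. Time in this medium was set by confluency in these cells and by rounds of days in tumorspheres, so it was not matched. TP63 was at 6.36 and 5.74 CPM in tumorsphere medium, and its log2 difference from wt 2D was -0.27 (95% interval -0.91 to 0.36, adjusted p = 0.52). KRT17 was at 0.257 and 0.354 CPM, below all wt 2D libraries, on 7 and 9 reads (-2.55 ± 0.80, adjusted p = 0.021). SFN was lower too, at 87.7 and 83.8 CPM (-0.76 ± 0.20, adjusted p = 0.0072). These 2 of 9 calls stood beside 32.0% of all genes called, 15.6% higher and 16.4% lower. Without a call, KRT5 was at 0.992 and 1.10 CPM, also below all wt 2D libraries (count ratio 0.295, counting interval 0.217 to 0.395). With the compared groups alone KRT5 was called lower, as given in the closing section. KRT15, not called, lay below all wt 2D libraries as well (ratio 0.640, counting interval 0.463 to 0.876). The KRT17 call was lost without the medium replicate A (-2.33, adjusted p = 0.13) or B (-2.79, adjusted p = 0.088), and the SFN call without B (-0.74, adjusted p = 0.064). One of these libraries held 0 reads of KRT14, which allows up to 0.118 CPM, and the other 0 reads of KRT16, which allows up to 0.110 CPM. Both groups held 1 to 9 reads of these keratins in all, so a difference was not detectable at this depth.

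Against adherent cells in tumorsphere medium, wt 3D was higher in 8 of the 9 members, all but KRT6A, beside 62.8% of all genes called, 32.8% higher and 30.0% lower. This comparison spans growth form, time in the medium and RNA kit together, and the part of each was not tested. TP63 was higher by 5.43 ± 0.33 (adjusted p = 4.6e-10) and KRT17 by 10.30 ± 0.66 (adjusted p = 7.0e-10). SFN was higher by 0.73 ± 0.20 (adjusted p = 0.0037). For KRT14 the counts were 1043 against 1 read, a ratio of 614 with an interval of 110 to 24286, and for KRT16 898 against 1, a ratio of 529 with an interval of 94.7 to 20913. The TP73 difference of 1.18 ± 0.36 (adjusted p = 0.0087) was not called without medium replicate A (1.20, adjusted p = 0.051) or B (1.18, adjusted p = 0.050).

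Summed per kilobase, the 4 type I members were at 2.16 ± 0.269 CPM per kb in wt 2D and the 3 type II members at 1.97 ± 0.377, close to parity (n = 3). In wt 3D the sums were 272 ± 53.4 for type I and 10.0 ± 0.722 for type II, a ratio of 26.9 ± 3.50. KOd 3D had 154 ± 65.8 and 16.7 ± 10.7, a ratio of 9.98 ± 1.81. In labelled KOs 3D the type II members together held 0.184 ± 0.0667 CPM per kb against 16.4 ± 0.704 of type I, a ratio of 97.7 ± 36.0. That ratio ran from 64.3 to 136 and rested on few type II reads: 27 of KRT5, 22 of KRT6A and 5 of KRT6B over the 3 libraries. Among these members type I exceeded type II in every tumorsphere library, and the ratio had its highest mean in labelled KOs. The sums leave out keratins outside the set. In wt 3D these included type II KRT7, KRT8 and KRT75, at 189, 257 and 203 CPM, and type I KRT18, at 188. KRT7 was at 1654 CPM in wt 2D. The ratios therefore do not give the balance of all type I and type II keratins. KRT17 made up 90.6% ± 1.04 of the type I sum in wt 3D, 78.8% ± 0.306 in KOd 3D and 78.02% ± 0.586 in labelled KOs 3D. In 2D its share was 52.997% ± 4.25 in wt, 36.0% ± 0.562 in KOd and 45.9% ± 26.4 in labelled KOs, where it ran from 21.3% to 73.8%. KRT5 and KRT14, the usual basal pair, were at 9.31 ± 0.912 and 7.15 ± 1.66 CPM per kb in wt 3D. In labelled KOs 3D KRT14 was at 0.364 ± 0.0560 and KRT5 at 0.0947 ± 0.0386 CPM per kb, and in wt 2D KRT5 was at 1.53 ± 0.426 and KRT14 at 0.0695 ± 0.0253.

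Other keratins of stratified epithelia were also present. KRT75, a type II keratin of the hair follicle that was named after its values were seen, was at 247 ± 60.2 CPM in wt 2D and 203 ± 73.7 in wt 3D, without a call (-0.28 ± 0.21, adjusted p = 0.25). In labelled KOs it fell from 1360 ± 198 to 262 ± 3.00 CPM (-2.38 ± 0.22, adjusted p = 6.6e-08) and in KOd from 348 ± 20.2 to 214 ± 16.7 (-0.70 ± 0.21, adjusted p = 0.0068). Of 14 listed other keratins of stratified epithelia 7 could be tested. In 3D against 2D, 4 rose and 1 fell in wt, 4 and 3 in labelled KOs and 3 and 3 in KOd, with median log2 fold changes of 3.96, 1.82 and 0.30. Of all genes 63.7%, 65.0% and 66.4% were called in these comparisons, against 5, 7 and 6 of these 7. KRT3, the corneal type II keratin, went from 4 reads in wt 2D to 27.0 ± 8.46 CPM in wt 3D, and KRT79 from 3 reads to 6.72 ± 2.50 CPM (ratio 180, interval 61.3 to 875). In labelled KOs KRT3 went from 4 to 295 reads (ratio 68.0, interval 26.3 to 251) and KRT79 from 5 to 606 (ratio 112, interval 47.7 to 346). In KOd KRT3 went from 1 to 51 reads (ratio 47.8, interval 8.20 to 1925) and KRT79 from 1 to 128 (ratio 120, interval 21.2 to 4776). KRT78 rose by 3.96 ± 0.35 in wt (adjusted p = 3.1e-08), 3.00 ± 0.27 in labelled KOs and 2.01 in KOd. KRT80 fell in all 3, from 240 ± 6.41 to 12.6 ± 0.616 CPM in wt (-4.25 ± 0.18, adjusted p = 2.7e-12). Unlike the members, these keratins were lowest in KOd tumorspheres. Against wt 3D, KOd 3D had 0 of the 7 higher and 5 lower, beside 16.5% and 17.5% of all genes. KRT3 was at -5.61 ± 0.32 (adjusted p = 5.2e-10) and KRT79 at -2.29 ± 0.37 (adjusted p = 9.4e-05). Against labelled KOs 3D, KOd 3D also had 0 higher and 5 lower, beside 23.9% and 23.3%.

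The simple-epithelium keratins KRT7 and KRT8 fell with tumorsphere culture in all 3 kinds of cells. KRT7, from 1654 ± 157 CPM in wt 2D to 189 ± 49.7 in wt 3D, fell by log2 fold changes of -3.13 ± 0.22 in wt, -3.28 ± 0.22 in labelled KOs and -3.15 ± 0.22 in KOd. KRT8 fell by -0.66 ± 0.10 in wt, -2.09 ± 0.10 in labelled KOs and -0.38 ± 0.10 in KOd. KRT18, its type I partner, fell in wt (-0.27 ± 0.10, adjusted p = 0.023) and labelled KOs (-1.26 ± 0.10, adjusted p = 9.0e-09) and was at 0.00 in KOd (adjusted p = 0.97). KRT19 was called higher in wt 3D than in wt 2D (adjusted p = 0.0049), but was at 0 in wt 2D and did not exceed 0.592 CPM anywhere. Of 4 tested simple keratins, 1 rose and 3 fell in wt, 0 and 3 in labelled KOs and 0 and 2 in KOd. These counts stand beside 63.7%, 65.0% and 66.4% of all genes called. In tumorsphere medium 2 of the 4 were lower than in wt 2D (median -0.57), beside 16.4% of all genes. Against that group wt 3D had 2 higher and 1 lower (median 0.17), beside 32.8% and 30.0% of all genes.

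**Figure D4:**
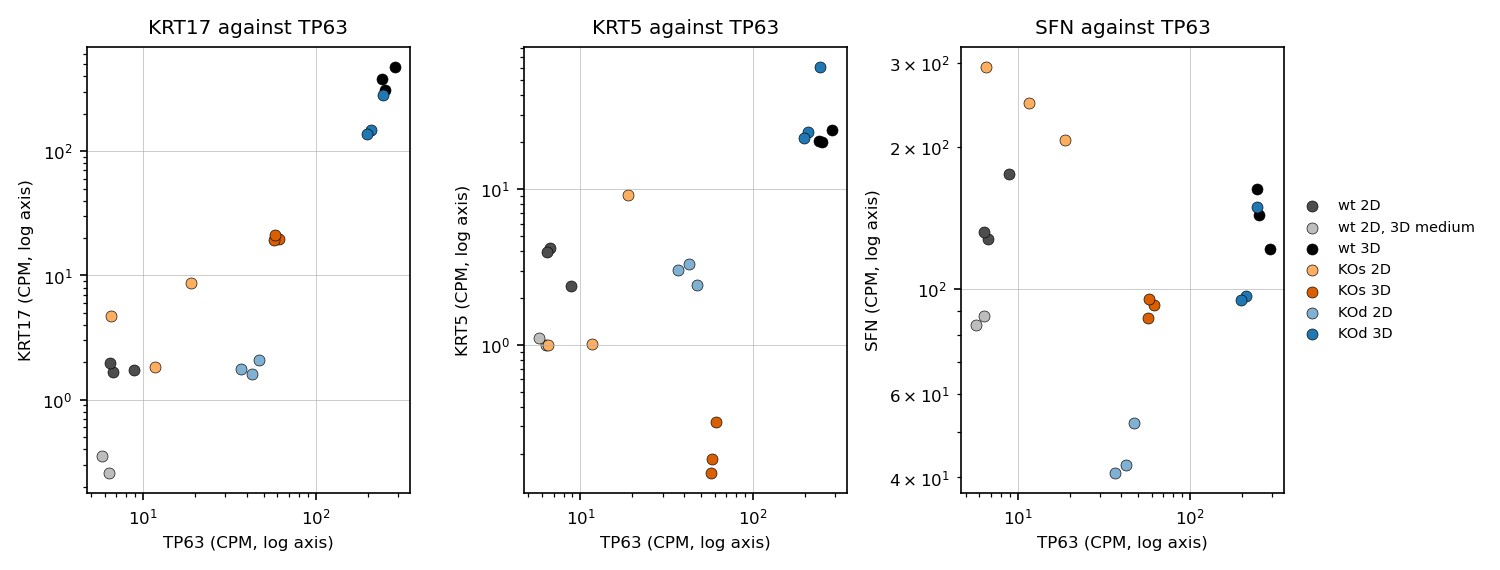
Level of KRT17, KRT5 and SFN against TP63 in each of the 20 libraries (CPM, both axes logarithmic), coloured by group. Labelled KOs 3D lies apart from the other groups in KRT5, at 0.150 to 0.319 CPM with TP63 at 57.4 to 61.4 CPM.

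Among 18 listed p63 target genes outside the set, of which 16 were tested, 10 rose and 3 fell with tumorsphere culture in wt, 8 and 4 in labelled KOs and 11 and 1 in KOd. The median log2 fold changes were 1.15, 0.67 and 1.26. Of all genes 33.3% were called higher and 30.4% lower in wt, 32.9% and 32.1% in labelled KOs and 35.2% and 31.2% in KOd, so that the 12 of 16 called in labelled KOs stood near the 65.0% of all genes. CLCA2, an epithelial adhesion protein and p53-family target, went from 3 reads in wt 2D to 140.4 ± 21.97 CPM in wt 3D, a ratio of 3738 with an interval of 1279 to 18127. It also rose in labelled KOs, from 1 read to 357 (ratio 329, interval 58.7 to 13046, adjusted p = 4.2e-09), and in KOd, from 12 reads to 13994 (ratio 1093, interval 626 to 2116, adjusted p = 2.2e-13). CDH3, which encodes P-cadherin, the cadherin of basal cells, rose by 7.32 ± 0.40 in wt (adjusted p = 8.6e-11) and 7.29 ± 0.41 in KOd (adjusted p = 8.1e-11). In labelled KOs CDH3 was at 0.132 ± 0.0732 CPM in 2D and 0.201 ± 0.0470 in 3D, without a call. PERP, a desmosomal p63 target, rose in wt by 1.19 ± 0.09 (adjusted p = 6.9e-09) and fell in labelled KOs by a log2 fold change of -0.73 ± 0.09. In 3D the labelled KOs libraries were below wt in 8 of these 16 genes and above it in 3, with CDH3 at -6.91 ± 0.37 (adjusted p = 6.6e-11), CLCA2 at -5.61 ± 0.23 (adjusted p = 2.7e-12) and PERP at -1.45 ± 0.09 (adjusted p = 7.4e-10). The 3 above wt, named after their values were seen, were LAMB3 (1.85 ± 0.19, adjusted p = 1.9e-07), COL17A1 (1.44 ± 0.31, adjusted p = 7.2e-04) and LAMA3 (0.66 ± 0.20, adjusted p = 0.0081), which encode hemidesmosome and basement membrane proteins. In that comparison 27.8% of all genes were called higher and 28.5% lower. In KOd 2D, where TP63 was above wt 2D, 4 of the 16 were higher and 5 lower (median -0.07). CLCA2 and CDH3 had no call there, and 22.1% of all genes were called higher and 22.5% lower. In tumorsphere medium 1 was higher and 7 lower than in wt 2D (median -0.67), beside 15.6% and 16.4% of all genes. Against that group wt 3D had 10 higher and 1 lower (median 1.58), beside 32.8% and 30.0%. FGFR2 and ZNF750 had at most 3 reads in any library and were not tested.

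**Figure D5:**
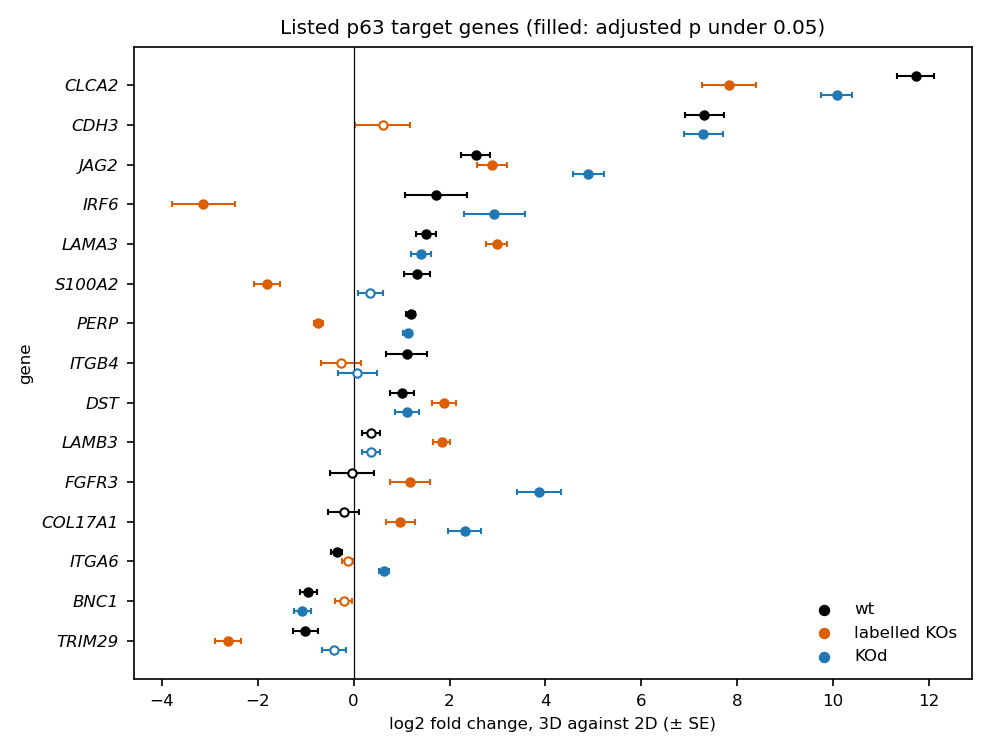
Log2 fold change (± SE) in 3D against 2D of 15 of the 16 tested p63 target genes for wt, labelled KOs and KOd, filled where adjusted p was under 0.05. CDH3 rises by 7.32 in wt and 7.29 in KOd and is not called in labelled KOs, and the fitted values of CLCA2 rest on 1 to 12 reads in each 2D group.

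Squamous differentiation genes were mostly silent: 12 of 18 listed genes had at most 10 reads in any library, and 5 (SPRR1A, SPRR1B, SPRR3, LORICRIN and CALML3) were at 0 in all 20. Of the 6 tested, 2 rose in wt, 3 rose and 2 fell in labelled KOs, and 2 rose and 2 fell in KOd, with medians of -0.15, 0.72 and 0.46. CSTA, the keratinocyte protease inhibitor cystatin A, rose in wt (1.67 ± 0.36, adjusted p = 5.4e-04) and fell in labelled KOs (-2.08 ± 0.38, adjusted p = 1.2e-04) and KOd (-0.93 ± 0.33, adjusted p = 0.019). PI3, which encodes the inhibitor elafin, was at 0.692 ± 0.172 CPM in wt 3D, 15.6 ± 7.93 in KOd 3D and 367 ± 5.73 in labelled KOs 3D. Of 13 desmosome genes 7 were tested: 2 rose and 3 fell in wt, 4 and 3 in labelled KOs and 3 and 2 in KOd, with medians of -0.40, 0.44 and 0.47. Without labelled KOs 2D replicate A the second of these counts was 4 and 1. The 5 of 7 called in wt and in KOd were close to the 63.7% and 66.4% of all genes called, and the squamous counts were on 6 genes beside the same shares and 65.0% in labelled KOs. DSP, the desmoplakin that anchors keratin filaments, was at 17.4 ± 3.83 CPM in wt 2D and 6.55 ± 0.791 in wt 3D (-1.41 ± 0.20, adjusted p = 1.1e-05). In labelled KOs it was at 0.798 ± 0.285 CPM in 2D and 0.379 ± 0.0963 in 3D (-1.08 ± 0.30, adjusted p = 0.0040). JUP, or plakoglobin, rose in wt (1.79 ± 0.19, adjusted p = 2.8e-07), PPL, or periplakin, also rose (1.91 ± 0.46, adjusted p = 0.0015), DSG2 fell (-0.94 ± 0.07, adjusted p = 3.5e-09), and DSC3 was at 0 in all libraries.

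Myoepithelial genes, which share the basal layer of the gland with KRT5 and KRT14, were split. Of 5 tested, 2 rose and 3 fell in wt, 2 and 2 in labelled KOs and 1 and 3 in KOd. ACTA2, smooth muscle actin, rose by 2.87 ± 0.30 in wt (adjusted p = 2.7e-07), while MYLK (-1.85 ± 0.23, adjusted p = 1.7e-06), TAGLN (-2.24 ± 0.49, adjusted p = 6.9e-04) and MME (-0.72 ± 0.21, adjusted p = 0.0051) fell. Of 7 regulators of the p53 family, all tested, 1 rose and 3 fell in wt, 2 and 2 in labelled KOs and 1 and 4 in KOd. These counts and the myoepithelial ones stand beside 63.7%, 65.0% and 66.4% of all genes called. E2F1, which can induce TP73, fell in wt (-1.67 ± 0.20, adjusted p = 1.2e-06), as did PPP1R13L, which encodes the inhibitor iASPP (-1.67 ± 0.23, adjusted p = 6.1e-06), and WWP1, a ubiquitin ligase (-0.35 ± 0.10, adjusted p = 0.0061), while MDM2 rose (0.26 ± 0.09, adjusted p = 0.018). Of the other 14-3-3 genes all 6 fell in wt and in labelled KOs and 5 of 6 in KOd, beside 30.4%, 32.1% and 31.2% of all genes called lower. In wt YWHAE changed by -0.99 ± 0.09, YWHAQ by -0.83 ± 0.08, YWHAB by -0.77 ± 0.08 and YWHAH by -1.15 ± 0.12, where SFN was at -0.02. In tumorsphere medium 4 of these 6 other 14-3-3 genes were lower than in wt 2D, beside 16.4% of all genes. Against that group wt 3D had 1 higher and 1 lower, beside 32.8% and 30.0% of all genes.

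Genes outside the set whose levels ran most like each member were sought by Pearson correlation of log2 CPM over the 20 libraries. Members were not compared with each other. The libraries share their groups and depths, so that r describes the likeness and nothing more. TP63 was most like ETV1 (r = 0.984) and SLC44A5 (0.978), and KRT16 most like SLC44A5 (0.986), APOBEC3F (0.976) and GPRC5C (0.974). KRT17 was most like KCNN4 (0.981), EDIL3 (0.980) and SCPEP1 (0.975), and KRT14 most like COL4A5 (0.977), RIPK4 (0.976) and CASK (0.970). For KRT15 the 3 nearest were CDKN1A (0.959), TCTN1 (0.958) and PHLDA3 (0.957). KRT5 ran most like NUAK1 (0.956), TRAM1L1 (0.920) and ARL6IP5 (0.915). TP73 was nearest to AGGF1 (0.930), FAM8A1 (0.930) and EDNRB (0.922), and SFN to KCTD10 (0.944), CORO1C (0.939) and HPS6 (0.925). KRT6A had the weakest likeness, with RHOB (0.828), SECTM1 (0.815) and PIGM (0.775). Apart from SLC44A5, which TP63 and KRT16 share, the members named no gene in common.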

How the data were processed

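The authors deposited whole-number read counts per Entrez gene, with no normalization, for each of 20 stranded mRNA libraries, and a gene length column. STAR and hg38 are named per the submitters' processing notes. The counting tool, strand setting and annotation are not given in the sources used here. Of 27864 IDs, 27740 matched a symbol.

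In edgeR 4.0.16 under R 4.3.3, filterByExpr kept 16323 genes and TMM set the scaling. The quasi-likelihood test used a single model of all 20 libraries, with a coefficient for each of the 7 groups and 13 residual degrees of freedom. Benjamini-Hochberg adjusted p under 0.05 over all tested genes counted as a call. Intervals are 95%. Ratios on few reads have exact binomial intervals, which cover counting error only. Levels between genes use CPM per kb. The pipeline was tested on simulated data with well-counted genes and changes smaller than the largest found here. That test did not cover genes on few reads. Members and lists were chosen with earlier results of these data known. Named genes are the members, NNMT, genes at 0 and up to 4 genes per list. Those 4 had the smallest adjusted p in wt 3D against wt 2D. Also named are the 3 non-member genes of highest likeness per member, with a mean log2 CPM (prior count 2) of at least 2. KRT75 was added after its values were seen. Whether replicates came from separate cultures is not in the labels, so the p-values reflect library spread, which may be technical. Alternatives were RLE factors, library totals, no filter, DESeq2 1.42.0, compared groups alone, a replicate block, adjusted p under 0.01, and leaving libraries out. Replicate letters are not said to pair libraries. Libraries of equal letter deviated together (every r over 0.1) in 1 pair of groups, wt 3D and KOd 3D (r from 0.210 to 0.342, and from -0.300 to 0.208 for unlike letters), so a block there was added after the data were seen. Some results that these rules would name are not reported here.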

Additional observations from a re-analysis of the deposited data

Results flagged for a closer look

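In 12 cases the change with tumorsphere culture differed between a pool and wt by the test of the interaction in edgeR (adjusted p under 0.05), among 18 tested (9 genes in 2 pools). For labelled KOs the interactions, on the log2 scale, were -6.69 for KRT5, -5.07 for KRT6A, -4.38 for KRT14, -4.10 for KRT15, -5.26 for KRT16, -5.78 for KRT17, -2.91 for TP63 and -1.42 for SFN. These 8 of 9 stood beside 19.0% of all genes called lower. KRT14 rested on labelled KOs 2D replicate A, without which it was -2.92 (adjusted p = 0.16). KRT5 (-4.79) and KRT17 (-5.12) were called without that library. TP73, at -0.60, was not called (adjusted p = 0.35).

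For KOd the interactions were -2.36 for KRT16, -2.79 for TP63, 1.83 for TP73 and 1.35 for SFN, beside 29.1% of all genes called in either direction. KRT16 was lost without wt 2D replicate A (adjusted p = 0.053) or B (adjusted p = 0.052) or KOd 2D replicate C (-1.85, adjusted p = 0.069), with 1 read per library in wt 2D. The interactions of the 2 pools share the wt libraries. The labelled KOs libraries were also deeper than the others, which cannot be told apart from the pool.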

How the results depend on the processing

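Of 83 member fold changes called over the 13 comparisons, 68 kept their direction and call under all alternatives run on them, and none of the 83 reversed under any. Calls were lost in 2 cases with library totals, 3 with the compared groups alone, 8 at adjusted p under 0.01, 2 without the 3 libraries far from their replicates (added after seeing the data), and 34 of 560 when 1 library was left out. RLE factors, no filter, DESeq2 and the replicate block in all groups changed no call among the 83. With the replicate block in wt 3D and KOd 3D alone, also added later, KRT14 was -1.10 (adjusted p = 0.0059) and 5 members in place of 4 were called, TP63 being added (-0.26, adjusted p = 0.032). For KOd 3D against wt 3D the 4 calls became 1 at adjusted p under 0.01 and 2 to 4 with 1 library left out (2 without wt 3D replicate A or C). For tumorsphere medium the 2 calls became 1 at adjusted p under 0.01, 4 without the 3 libraries, and 0 to 2 with 1 library left out (1 without medium replicate A, 0 without B). Over all genes that comparison went from 5224 calls to 3224 at adjusted p under 0.01, 3233 without A, 2772 without B and 7969 without the 3 libraries. At adjusted p under 0.01 the interactions went from 6012 to 3798 calls for KOs and from 4751 to 2822 for KOd. Library totals raised the share of calls that were higher from 50.6% to 65.5% in labelled KOs 3D against 2D, from 49.6% to 61.2% in KOd 2D against wt 2D, from 49.3% to 63.1% in labelled KOs 3D against wt 3D, from 48.5% to 70.1% in KOd 3D against wt 3D, from 48.4% to 59.8% between the 2D pools and from 48.5% to 69.5% in the KOs interaction. They shifted the median of all genes there by 0.22, 0.11, 0.16, 0.16, 0.15 and 0.22, and no member direction changed. The 4 myoepithelial calls in labelled KOs became 1 at adjusted p under 0.01, and 2 with the compared groups alone, without labelled KOs 2D replicate B or without labelled KOs 3D replicate C. Calls of members were also gained. In KOd 3D against wt 3D KRT6A was called without KOd 3D replicate A (1.27) or B (1.36), KRT15 without B (0.87), and both with library totals (1.14 and 0.81). With the compared groups alone KRT5 was called lower in tumorsphere medium (-1.75, adjusted p = 5.0e-04). Without the 3 libraries KRT6A was called higher in wt 3D than in wt 2D (0.97) and in medium (1.11), and the KOd interactions of KRT15 (-0.77) and KRT17 (-1.29) were called. The causes were not tested. Depth limits KRT6B, and KRT14 and KRT16 in 2D, where the latter 2 had at most 16 reads per library.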
